A study of Mus musculus with 18 samples.

Results

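The levels of 30452 genes were described in 3 RNA-seq libraries of MC3T3-E1 cells cultured on plain membranes of PLLA, a biodegradable polyester, without ultrasound (PLLA -US). These are 3 of the 18 libraries of the series, selected by their labels and not by any measured value. MC3T3-E1 is an established line of mouse pre-osteoblasts. The cells had been seeded at 20000 per well on discs of 15 mm and were taken after 5 days. The remaining 5 groups hold 3 libraries each: PLLA membranes with zinc oxide (PLLA/ZnO -US), the same with collagen (PLLA/ZnO@Col -US), and the 3 membranes with ultrasound for 10 min per day (PLLA +US, PLLA/ZnO +US and PLLA/ZnO@Col +US). What all groups share is the line, the seeding and the time in culture. The labels give no medium and do not say that the replicates came from separate cultures, so the SD printed here is the spread between libraries, which may be technical. Levels are FPKM, fragments corrected for the length of the transcript and the size of the library, so that genes can be set beside each other. Values for single genes are those of replicates 1, 2 and 3 in that order, or mean ± SD with n = 3. A gene was counted as detected at a mean of 1 FPKM or more. No contrast was tested.

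Osteoblasts first lay down a matrix of type I collagen and then mineralise it. The transcription factor RUNX2 commits mesenchymal cells to the lineage, SP7 acts after it, and alkaline phosphatase (Alpl), bone sialoprotein (Ibsp) and osteocalcin (Bglap) mark the stages at which matrix matures and takes up mineral. Pre-osteoblasts divide, spread and secrete matrix before most of these later genes come on.

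The 3 libraries held 49507020, 51391287 and 53480496 counts, within the 48307580 to 78039543 of the other 15 libraries. Pearson's r of log2(FPKM + 1) across 11428 genes was 0.980 between replicates 1 and 2, 0.991 between 1 and 3, and 0.987 between 2 and 3, given as a description across genes, which are not independent. Replicate 2 stood apart in several measures. Genes on the mitochondrial chromosome took 2.31% of its counts, against 3.72% in each of the other libraries, and 4 Y-linked genes (Ddx3y, Eif2s3y, Kdm5d and Uty) summed to 10.5 FPKM in it, against 21.8 in replicate 1 and 20.4 in replicate 3. The median coefficient of variation (CV, the SD as a percentage of the mean) over detected genes was 9.34%. From 2 libraries it was 6.22% without replicate 2, 7.45% without replicate 1 and 10.2% without replicate 3. A median CV from 2 libraries is not directly comparable with that from 3.

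Of the 30452 genes, 11428 (37.5%) were detected, among them 10125 of 17223 protein-coding genes (58.8%) and 1303 of the others (9.85%). A further 6518 genes had no count in any of the 3 libraries, each of which had a count elsewhere in the series. The non-coding genes above the threshold were mostly pseudogenes, with 819 processed pseudogenes and 98 lincRNAs, and reads of a pseudogene and its parent may not be told apart. Most detected genes lay between 1 and 100 FPKM. Only 31 reached 1000 FPKM, and these held 22.5% ± 2.86 of the summed FPKM. Of the detected genes, 10571 (92.5%) also had a mean of 1 FPKM or more in each of the other 5 groups. Just above the threshold lay Mgarp (mean 1.00034 FPKM), Slc5a3 (1.00161) and 9930012K11Rik (1.00308), and just below it Rab27a (0.99902), Zfp442 (0.998337) and Zfp947 (0.998107).

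**Figure D1:**
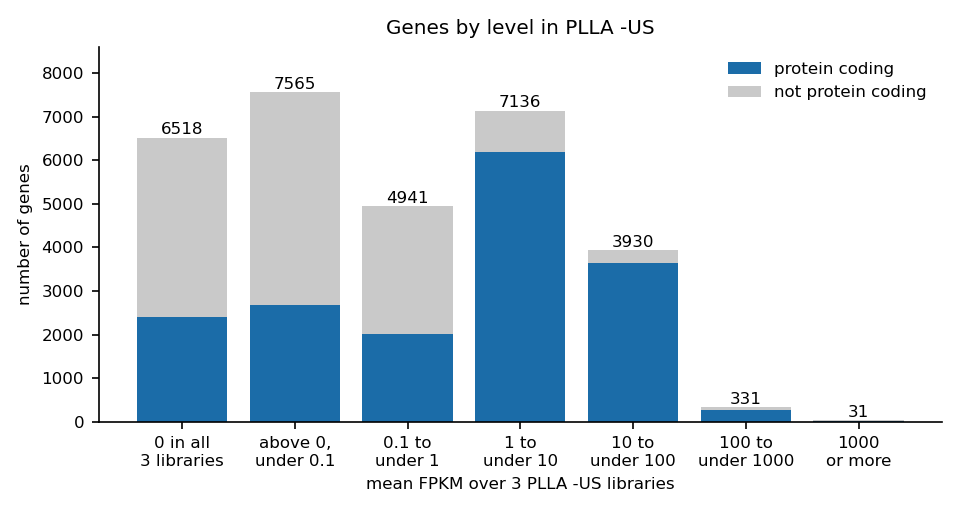
Number of genes (y axis) by mean FPKM over the 3 PLLA -US libraries (x axis, classes), with protein-coding genes in blue and the others in grey. The classes from 1 FPKM upward hold 7136, 3930, 331 and 31 genes, and they are mostly blue.

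The highest protein-coding genes were those of the mitochondrial genome, of translation and of the cytoskeleton, together with matrix genes. Outside ribosomal proteins and the mitochondrial genome the highest was Eef1a1, the elongation factor that brings transfer RNA to the ribosome, at 4123, 4561 and 4434 FPKM in the 3 libraries. It stood clear of the second gene, Spp1, whose highest library reached 1921 FPKM. Then followed the cytoplasmic actins Actb (1727 ± 172) and Actg1 (1569 ± 154), the secreted lectin Lgals1 (1519 ± 125) and the elongation factor Eef2 (1450.0 ± 158). The ferritin chains Fth1 and Ftl1, which store iron, were at 1347 ± 122 and 931 ± 64.8, and the chaperone Hsp90ab1 at 1023 ± 19.6. Calcium-binding S100a11 (931 ± 75.5) and S100a4 (640.3 ± 68.5), the tubulins Tuba1b (732 ± 58.6) and Tubb5 (612 ± 48.8), the chromatin-associated Ptma (725 ± 31.9), the interferon-inducible membrane protein Ifitm3 (724 ± 101) and the ubiquitin gene Ubb (547 ± 59.7) were also among the 20 highest. The matrix genes Col1a1, Sparc and Fn1 and the smooth muscle actin Acta2 filled further places. The order was loose, because 16 of the 19 neighbouring pairs in this ranking had overlapping ranges. Actb and Actg1 encode nearly identical proteins, and how the authors' counting shared reads between such genes is not given in the sources used here.

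**Figure D2:**
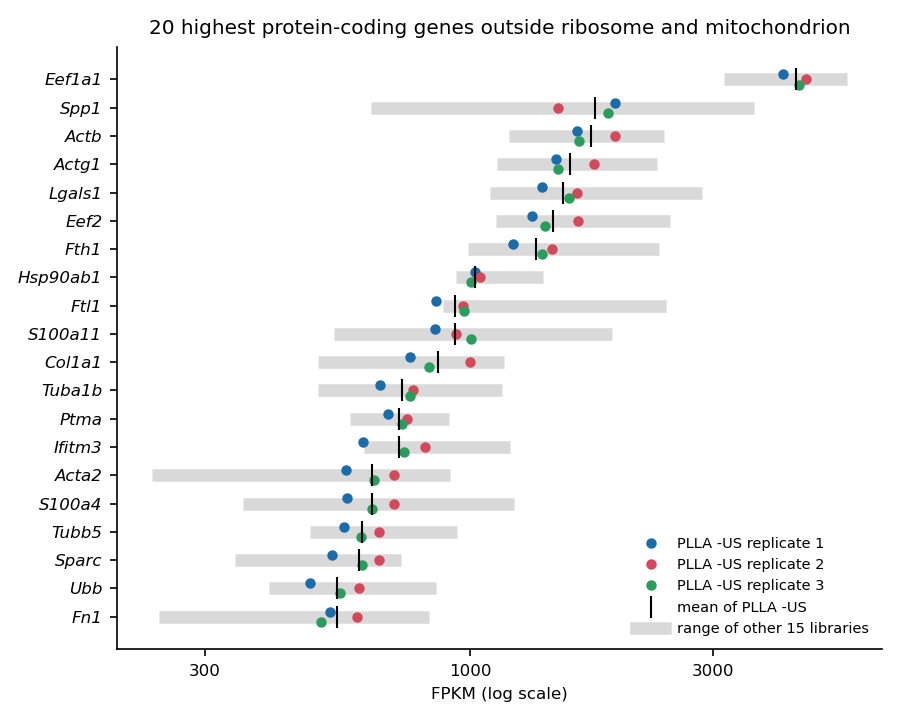
FPKM on a log axis of the 20 highest protein-coding genes outside ribosome and mitochondrion. Coloured points are the 3 PLLA -US libraries, black ticks their mean and grey bars the range of the other 15 libraries; Eef1a1 lies apart at 4123 to 4561 FPKM and the 19 others between 484 and 1925.

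The mitochondrial genome gave the highest levels of all, led by mt-Co1, a subunit of cytochrome oxidase, at 7464, 5285 and 7553 FPKM. Replicate 2 was the lowest for it, and the 13 mitochondrial protein genes took 12.1%, 7.66% and 11.8% of summed FPKM in the 3 libraries. Copies of mitochondrial sequence in the nuclear genome followed them closely: Gm28661 was listed at 3186, 1912 and 3062, beside 3189, 1906 and 3068 for mt-Co2, so that these pseudogenes are uncertain. Ribosomal proteins were detected in 82 of 84 genes and took 8.88%, 10.6% and 9.61% of summed FPKM. Highest among them were Rplp0, a protein of the ribosomal stalk, at 2044 ± 207, and Rps15, of the small subunit, at 1392 ± 199. In sum the 20 highest genes of the table held 17.9% ± 2.63 of summed FPKM and 10.4% ± 0.209 of counts. By FPKM these 20 include nuclear copies of mitochondrial sequence such as Gm28661.

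Glycolysis genes were detected in 16 of 17 cases. Pkm, the pyruvate kinase, was at 503 ± 52.6, Pgk1 at 496 ± 43.6 and Ldha, which makes lactate, at 435 ± 48.9. Gapdh, another glycolytic enzyme and a common reference gene, was the exception in its spread, with 16.9, 106 and 72.8 FPKM in the 3 libraries. It has many processed pseudogenes, which makes this value uncertain.

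The 5 genes chosen as markers of these cells (Col1a1, Spp1, Sparc, Acta2 and Runx2) were all detected, although most of them are also expressed by other mesenchymal cells. Spp1 encodes osteopontin, an acidic phosphoprotein of bone matrix (chromosome 5, 104435118 to 104441050 on GRCm38, the build of all coordinates here), and had 1921, 1489 and 1863 FPKM. Replicate 2 was the lowest library. Col1a1, the main chain of type I collagen (chromosome 11, 94936224 to 94953042), had 761, 998 and 831 FPKM, with replicate 2 the highest. Sparc, or osteonectin, a collagen-binding glycoprotein (chromosome 11, 55394500 to 55423183), had 535, 661 and 612 FPKM, and Acta2, the smooth muscle actin also made by mesenchymal cells in culture (chromosome 19, 34241090 to 34255590), had 570.0, 707 and 646. For both, replicate 1 was the lowest and replicate 2 the highest. Runx2 itself (chromosome 17, 44495987 to 44814797) stood far below at 9.06, 9.54 and 8.79 FPKM, with a CV of 4.13%. In bulk RNA, fewer cells with a transcript and less transcript per cell cannot be told apart.

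Levels of these markers in the 6 groups are given as a description, with no test. Col1a1 averaged 863 ± 122 in PLLA -US, 945 ± 193 in PLLA/ZnO -US, 772 ± 235 in PLLA/ZnO@Col -US, 958 ± 68.9 in PLLA +US, 961 ± 27.3 in PLLA/ZnO +US and 1082 ± 27.0 in PLLA/ZnO@Col +US. Spp1 averaged 1758 ± 234 in PLLA -US, and 1824 ± 449, 1666 ± 1683, 1578 ± 573, 1465 ± 666 and 768 ± 135 in the other groups in the same order. The wide SD of PLLA/ZnO@Col -US came from libraries at 658, 3609 and 731 FPKM, none of them within the span of PLLA -US. In PLLA/ZnO@Col +US, Col1a1 lay at 1053 to 1107, Spp1 at 637 to 908 and Acta2 at 726 to 742 FPKM, outside the spans of PLLA -US. Sparc (659 to 730) and Runx2 (6.26 to 9.49) overlapped the spans of PLLA -US. How many of all genes lie outside in this way was not counted, so no difference between the groups is read from these spans. Runx2 averaged 9.13 ± 0.377 in PLLA -US, and its group means elsewhere lay between 8.01 and 8.57 FPKM, with SDs of 0.525 to 1.72. Its single libraries in those groups ran from 6.22 to 9.49 FPKM. Each of those groups overlapped the 8.79 to 9.54 of PLLA -US.

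**Figure D3:**
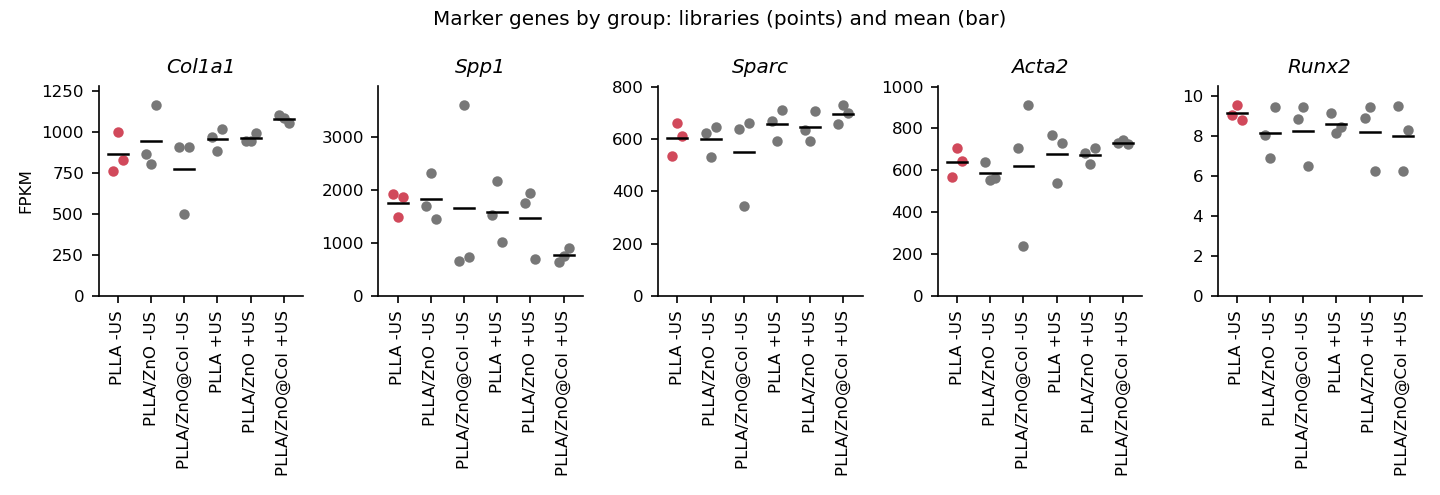
FPKM (y axis, linear from 0) of Col1a1, Spp1, Sparc, Acta2 and Runx2 in the 6 groups (x axis); points are libraries, red for PLLA -US, and bars are group means. The PLLA -US points of Col1a1 lie at 761 to 998 FPKM and those of Spp1 at 1489 to 1921, while Spp1 in PLLA/ZnO@Col +US lies at 637 to 908.

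The osteoblast list was split between detected genes, some of them abundant, and genes at the edge of detection. Stages were not compared, because all libraries were taken after 5 days. Of its 29 measured members 16 (55.2%) were detected, beside 58.8% of all protein-coding genes, and its median was 5.54 FPKM, beside 2.39 for all protein-coding genes. Above 10 FPKM, besides Spp1, Col1a1 and Sparc, lay Col1a2 (the second chain of type I collagen) at 409 ± 71.1, Atf4 (a stress-responsive factor that osteoblasts need for collagen synthesis) at 65.4 ± 3.07, and Cdh11 (osteoblast cadherin) at 54.7 ± 1.77. So did Ogn (osteoglycin), with 26.3, 12.8 and 34.9 FPKM and replicate 2 the lowest, the pyrophosphate transporter Ank (17.5 ± 0.818), the vitamin D receptor Vdr (13.5 ± 1.11) and the phosphate transporter Slc20a1 (11.5 ± 0.668). Between 1 and 10 FPKM lay Runx2, Tnfrsf11b (8.91 ± 1.44), which encodes osteoprotegerin, the decoy that holds back osteoclast formation, Slc20a2 (7.57 ± 0.181), and the homeobox factors Dlx5 (5.54 ± 0.637) and Msx2 (3.22 ± 0.212).

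Sp7, Alpl, Ibsp and Bglap, named above for later stages, were low or without a count, as were other genes of the list. Sp7, the factor that acts after RUNX2 (chromosome 15, 102356606 to 102366968), had 0.257, 0.276 and 0.558 FPKM, from 51, 56 and 121 counts. Alpl (chromosome 4, 137741733 to 137796384) had 0.0253, 0.0369 and 0.0706 FPKM, from 6, 9 and 18 counts, and its highest value in the other 15 libraries was 0.178. Ibsp (chromosome 5, 104299171 to 104311469) had 0 counts in the 3 libraries, which allows up to 0.0213 FPKM at 3 counts per library. The limit covers counting error only. Bglap (chromosome 3, 88383501 to 88384464) had 0.349, 0 and 0.626 FPKM and its neighbour Bglap2 0.571, 1.64 and 0.673, with Bglap3 at 0 counts (up to 0.0194). The Bglap genes are near-identical copies, so reads may be shared among them. Further below 1 FPKM were Smpd3 (0.798 ± 0.114) and Phospho1 (0.766 ± 0.221), enzymes of matrix vesicles, the parathyroid hormone receptor Pth1r (0.0723 ± 0.00628), the small leucine-rich proteoglycan Omd (0.308 ± 0.188), the membrane protein Ifitm5 (0.298 ± 0.291) and the homeobox factor Dlx3 (0.0372 ± 0.0362). Enpp1, which makes pyrophosphate, had 0 counts (up to 0.00490). Tnfsf11, the osteoclast factor RANKL, was not analysed here.

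The threshold matters for the lower genes, because summed FPKM was 277383 to 285802 per library. On the TPM scale, which gives each library the same sum, each value is 3.57 times larger on average, and 23 of the 29 genes then reached 1. The 7 that moved across were Bglap2 (3.44 ± 2.14 TPM), Smpd3 (2.84 ± 0.394), Phospho1 (2.73 ± 0.795), Sp7 (1.29 ± 0.575), Bglap (1.15 ± 1.0997), Omd (1.09 ± 0.646) and Ifitm5 (1.06 ± 1.05). Alpl (0.157 ± 0.0808 TPM), Pth1r, Dlx3, Bglap3, Ibsp and Enpp1 stayed under 1 on both scales.

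Osteocyte genes showed the same division. Those with wider roles were high: Dstn, an actin-severing protein, at 281 ± 31.9, Pdpn (podoplanin, E11) at 126 ± 6.52, the hyaluronan receptor Cd44 at 84.9 ± 5.27, Capg, which caps actin filaments, at 53.8 ± 7.70, and the chaperone Hyou1 at 18.3 ± 1.94. Those restricted to bone cells in matrix were below 1 FPKM. Dmp1 had 0.758, 0.914 and 0.873 FPKM, from 122, 148 and 152 counts. Phex, the phosphate-regulating endopeptidase, had 0.273, 0.329 and 0.353, from 100, 122 and 140 counts. Fgf23, the phosphate hormone, had 0, 0.0592 and 0, and Sost, which encodes the Wnt inhibitor sclerostin, had 0 counts (up to 0.0216). On the TPM scale, 3.57 times larger on average, Dmp1 and Phex would pass 1, so their place depends on the scale. Mepe was not analysed here.

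**Figure D4:**
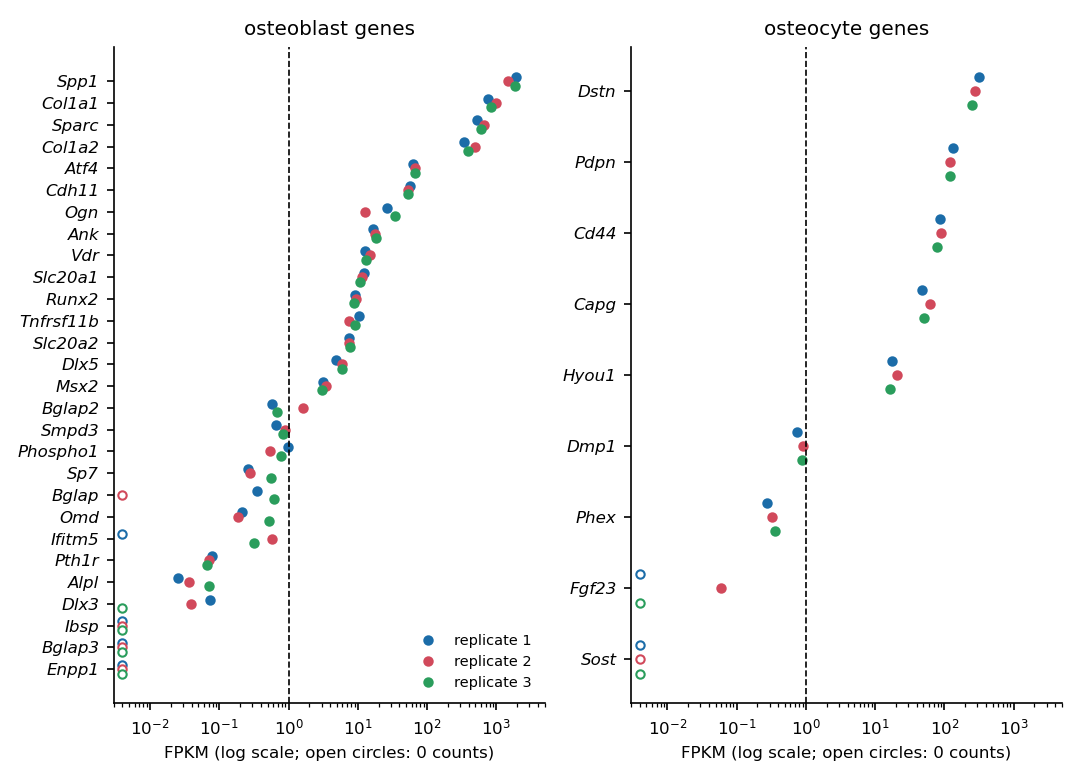
FPKM on a log axis in PLLA -US replicates 1 to 3 (colours) of the osteoblast and osteocyte genes reported here, ordered by mean. The dashed line marks 1 FPKM and open circles at the left edge mark 0 counts; Spp1, Col1a1 and Sparc lie farthest right in the osteoblast panel, and Ibsp, Bglap3, Enpp1 and Sost have open circles in the 3 libraries.

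The RUNX2 protein binds the hexamer ACCACA within the longer osteoblast-specific element of bone gene promoters, and a TATA box near the start site is typical of many genes expressed in particular tissues. The stretches upstream of Spp1, Bglap and Alpl are printed because they set a bone gene at the top of the table beside a pair of later ones near its floor. They are the 150 bases before the RefSeq start site on GRCm38.p6, printed 5′ to 3′ on the gene's strand, with ACCACA and TATAAA in capitals. Spp1 is at chr5:104434961-104435110 on the plus strand, Bglap at chr3:88384467-88384616 and Alpl at chr4:137796385-137796534 on the minus strand.
Spp1: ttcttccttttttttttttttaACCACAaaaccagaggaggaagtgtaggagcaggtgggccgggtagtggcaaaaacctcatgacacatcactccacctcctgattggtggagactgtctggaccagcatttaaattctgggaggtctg
Bglap: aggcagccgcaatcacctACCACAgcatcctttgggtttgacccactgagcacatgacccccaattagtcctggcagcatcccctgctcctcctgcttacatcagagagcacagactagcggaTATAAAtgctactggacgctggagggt
Alpl: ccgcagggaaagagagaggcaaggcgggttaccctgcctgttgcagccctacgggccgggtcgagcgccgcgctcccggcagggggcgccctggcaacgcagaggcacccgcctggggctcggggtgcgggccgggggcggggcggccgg
Spp1 (1758 FPKM) and Bglap (0.325 FPKM) each held ACCACA, starting 128 and 132 bases upstream. Bglap also held TATAAA, starting 27 bases upstream, and the Alpl stretch held neither. Promoters of 250 bases before the start were searched for ACCACA or TGTGGT, its reverse complement, over 11077 protein-coding genes whose RefSeq start lay within 250 bases of the table's. Either was present in 11.6% of all of them, in 10.2% of genes at 1 FPKM or more, in 7.58% of genes at 100 or more, and in 6 of 15 matched osteoblast genes. Of those 15, the detected genes held it in 4 of 6 (Spp1, Ogn, Slc20a1 and Runx2) and those below 1 FPKM in 2 of 9 (Bglap and Enpp1). The list has 29 measured genes, and the others, such as Col1a1 and Sparc, had no matched promoter. Shares in such small lists vary widely: 2 of 7 erythroid, 2 of 7 kidney tubule and 0 of 7 smooth muscle and pericyte genes held it. A match is a description of letters and not of binding.

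TATAAA on the gene's strand, starting 20 to 40 bases upstream, was present in 1.002% of promoters of genes at 1 FPKM or more and in 3.51% of those below 1. Among genes at 100 FPKM or more it was in 3.54%. Matched genes of the secreted lists at 1 FPKM or more had it in 9 of 126 (7.14%), and 4 stretches with the element in capitals are printed to show its place in the promoters of abundant genes. They are S100a4, from the fibroblast list (chr3:90603620-90603769, plus strand), Ecm1 (chr3:95739570-95739719, minus), Ccn1 (chr3:145649986-145650135, minus) and Postn (chr3:54360957-54361106, plus).
S100a4: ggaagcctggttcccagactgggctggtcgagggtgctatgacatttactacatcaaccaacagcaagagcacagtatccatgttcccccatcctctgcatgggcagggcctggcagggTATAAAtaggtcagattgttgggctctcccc
Ecm1: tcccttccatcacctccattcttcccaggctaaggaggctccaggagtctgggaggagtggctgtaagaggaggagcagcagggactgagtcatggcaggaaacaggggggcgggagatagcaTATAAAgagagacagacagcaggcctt
Ccn1: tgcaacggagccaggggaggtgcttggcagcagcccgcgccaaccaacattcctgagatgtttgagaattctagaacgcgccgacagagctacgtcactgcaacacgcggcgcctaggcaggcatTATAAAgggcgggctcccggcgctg
Postn: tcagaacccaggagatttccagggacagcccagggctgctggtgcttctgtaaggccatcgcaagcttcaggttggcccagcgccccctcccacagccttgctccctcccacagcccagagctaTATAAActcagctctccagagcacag
The element started 31 bases upstream in S100a4, 27 in Ecm1, 25 in Ccn1 and 26 in Postn. The median GC content was 60.4% in promoters of genes at 1 FPKM or more and 54.8% in those below.

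The counts of detected members given for each list stand beside 58.8% of all protein-coding genes, and several lists lie near or below that share. Chains of fibrillar and pericellular collagens led the collagens, and 21 of 42 chains (50%) were detected. Col1a1 and Col1a2, which assemble in a fixed ratio into type I collagen, had a level ratio of 2.20, 2.05 and 2.10 in the 3 libraries, and the ratio ranged from 1.46 to 2.33 in the other 15. Col6a1, of the collagen that surrounds cells, was at 221 ± 44.9, 3.20 ± 0.0555 times its partner Col6a2 (69.1 ± 13.3). Col12a1, which coats fibrils, was at 99.0 ± 7.63, and the type V chains Col5a2 and Col5a1, which set fibril diameter, were at 92.1 ± 8.43 and 89.8 ± 10.0. Col3a1 was at 44.7 ± 6.19. The basement membrane chains Col4a1 and Col4a2 were at 31.2 ± 1.99 and 34.1 ± 2.00, with a ratio of 0.916 ± 0.00916. Cartilage collagen Col2a1 was at 0.330 ± 0.0581.

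Enzymes that fold, modify and cross-link collagen were detected in 25 of 31 cases. Serpinh1, the collagen chaperone HSP47, had 314, 384 and 339.9 FPKM, and P4hb, a subunit of prolyl 4-hydroxylase, had 272, 309 and 280.0. Lox, the lysyl oxidase that starts cross-links, was at 165 ± 20.8, and Pcolce, which speeds removal of the procollagen end, at 121 ± 14.4. As for the type I collagen genes, replicate 2 was the highest library for the list as a whole (1573 summed FPKM, with 1382 and 1429 in replicates 1 and 3).

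Matrix glycoproteins were detected in 39 of 59 cases, led by Spp1, Sparc and Fn1. Fn1, fibronectin, had 530.0, 599 and 507 FPKM, and Ecm1, a glycoprotein of bone and skin, had 187, 223 and 207. Ccn1, a matricellular protein induced by stretch and serum, had 191, 203 and 96.7, with replicate 3 the lowest. Below these lay Fstl1 (133 ± 9.92), Thbs2 (122 ± 13.0), and Mgp (62.7 ± 13.7), an inhibitor of mineral formation. Periostin (Postn), of periosteum, was at 37.6 ± 8.54. Proteoglycans were detected in 9 of 23 cases. Biglycan (Bgn), which binds collagen, stood alone at 426, 441 and 442, followed by perlecan (Hspg2) at 97.3 ± 16.5, versican (Vcan) at 32.8 ± 7.92 and Ogn. Decorin (Dcn) was at 7.02 ± 0.493, while lumican (Lum) was at 0.0985 ± 0.0759 and aggrecan (Acan) had 0 counts (up to 0.00650).

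Inhibitors of matrix metalloproteases were the highest genes among matrix proteases and their inhibitors, of which 46 of 87 were detected. Timp2 had 303, 343 and 313 FPKM and Timp1 235, 246 and 260.0, beside 105, 132 and 115 for the gelatinase Mmp2. The ranges of Timp2 and Mmp2 did not overlap, and their ratio was 2.74 ± 0.142. Mmp14, the membrane protease that activates it, was at 49.4 ± 4.62. Serpinf1, which encodes PEDF, was at 160.1 ± 10.99. The lysosomal proteases Ctsd (207 ± 17.3) and Ctsz (104 ± 14.3) were also high.

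Antagonists were the highest genes among TGF-beta and BMP ligands and antagonists, of which 16 of 30 were detected. The BMP antagonist Grem1 was first with 93.6, 54.2 and 76.0, followed by Chrdl1 (32.7 ± 2.75) and Twsg1 (31.8 ± 1.08), both binders of BMP. Tgfb3 was the highest ligand, at 22.6 ± 2.40, ahead of Tgfb1 (7.24 ± 0.750) and Bmp4 (6.38 ± 0.722). Bmp2 was not analysed here. Of 64 other growth factors 31 were detected. Csf1, which sustains macrophages and osteoclast precursors, had 222, 220.1 and 212 FPKM. Fgf7, a fibroblast product that acts on epithelium, had 207, 99.0 and 170.3, with replicate 2 lowest. The IGF-binding proteins Igfbp7 (102 ± 7.48) and Igfbp4 (55.3 ± 4.14) exceeded Igf1 (4.95 ± 0.952), and Grn was at 62.3 ± 6.78. Among genes that the table annotates with growth factor activity, the placental-type hormone gene Prl2c2 (proliferin) was the highest at 445, 234 and 277; its close copies make this value uncertain.

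Wnt genes were the sparsest of the secreted lists but for chemokines, with 9 of 32 detected. Dkk3, a relative of the Wnt inhibitors, was at 66.0 ± 7.94. The ligands Wnt10a (13.0 ± 1.36), Wnt10b (7.68 ± 1.35) and Wnt6 (5.61 ± 0.659) followed. Dkk1, Dkk2, Wif1 and Sfrp4 had 0 counts. Of 69 chemokines and cytokines 16 were detected. Mif, a constitutive cytokine, had 429, 542 and 465 FPKM. Ccl2 and Ccl7, which attract monocytes, had 152, 117 and 113 and 146, 90.9 and 105, with replicate 1 the highest for Ccl2. Cx3cl1 was at 53.1 ± 3.11 and Cxcl12, the stromal chemokine, at 50.6 ± 2.94.

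Receptors for matrix other than integrins had the highest sum of the receptor lists, 1317 to 1544 FPKM over the 3 libraries. Of 27 integrin genes 11 were detected, among which Itgb1, the common beta chain, had 136, 128 and 123.6 FPKM. Its ranges lay above those of Itgb5 (50.01 ± 3.22), the fibronectin receptor chain Itga5 (29.4 ± 1.75), the collagen receptor chain Itga11 (26.6 ± 3.79) and Itgav (20.2 ± 2.49), which binds RGD ligands such as osteopontin. Other matrix receptors were detected in 18 of 21 cases. They were led by Bsg (306 ± 26.0), an inducer of matrix proteases, the endocytic receptor Lrp1 (272 ± 45.2), the tetraspanin Cd63 (162 ± 22.3) and the syndecan Sdc4 (112 ± 10.8). The collagen-binding kinase Ddr2 was at 30.4 ± 2.36.

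Receptor tyrosine kinases were detected in 22 of 47 cases (46.8%), beside 58.8% of all protein-coding genes. Axl, the receptor for Gas6, stood apart at 127, 136 and 119 FPKM. Next were Igf2r, which clears IGF2 and is kept with this list though it is no kinase, at 33.3 ± 4.09, the Wnt co-receptor Ryk (33.2 ± 1.08) and Pdgfrb (29.4 ± 3.60). Fgfr1 was at 20.7 ± 1.09 and Pdgfra at 11.7 ± 0.995. For TGF-beta and BMP, 8 of 14 receptors were detected, with the co-receptor Tgfbr3 (47.5 ± 5.49) and Tgfbr2 (27.5 ± 3.09) above the BMP receptors Bmpr1a (12.7 ± 1.71) and Acvr1 (11.4 ± 0.610). For Wnt, Notch and Hedgehog, 15 of 22 were detected: the Hedgehog transducer Smo (32.5 ± 3.22), Fzd1 (29.8 ± 4.19), Notch2 (18.0 ± 2.14) and the Wnt co-receptor Lrp5 (12.8 ± 1.77) were the highest.

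Of the 38 cytokine and TNF receptors on the list, which does not hold every such receptor, 27 were detected, and within it the highest were Tnfrsf12a (63.1 ± 3.23), the TWEAK receptor, Tnfrsf1a (59.2 ± 4.16), Ltbr (43.9 ± 2.28) and Il13ra1 (40.2 ± 4.85). Il6st, the chain that cytokines of the IL-6 family share, was at 31.6 ± 2.90. G-protein-coupled receptors were mostly low, with 16 of 47 on the list detected and 41 of 476 (8.61%) among genes that the table annotates with this activity. S1pr1, a receptor for sphingosine-1-phosphate, was the highest at 59.5, 65.1 and 64.2 FPKM, ahead of the thrombin receptor F2r (20.9 ± 0.750), Ackr3 (18.9 ± 0.350) and Gpr176 (13.9 ± 0.681). None of 134 annotated olfactory receptors was detected, the highest being Olfr56 at 0.783 FPKM.

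Channels that answer force or calcium were detected in 19 of 33 cases. Gja1, the gap junction protein connexin 43, was the highest with 43.9, 46.2 and 43.9 FPKM. Piezo1, a stretch-activated channel, had 27.2, 29.97 and 24.2, followed by Tmem63a (26.9 ± 2.46) and Pkd2 (23.4 ± 1.04). Trpv4 was at 1.47 ± 0.314. Of 43 nuclear receptors 22 were detected. The retinoic acid receptor Rarg (32.8 ± 2.65), the oxysterol receptor Nr1h2 (17.3 ± 2.27), Rxra (16.6 ± 2.04), the shared partner of many of them, and Nr2f2 (15.6 ± 0.170) led. Vdr was at 13.5 ± 1.11 and the glucocorticoid receptor Nr3c1 at 9.63 ± 1.08.

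Ligands and receptors were set side by side for 31 pairs that were chosen after their values had been seen, and 21 pairs had both members at 1 FPKM or more. They included Gas6 (54.4 ± 8.15) with Axl, Pdgfc (15.6 ± 0.312) with Pdgfra, Tgfb3 with Tgfbr2, Wnt5a (4.72 ± 0.501) with Ror2 (5.87 ± 0.559), and Lif (8.75 ± 2.48) with Lifr (2.78 ± 0.171). Csf1, at 218 FPKM, was paired with Csf1r at 1.18, 1.40 and 1.26. For others the receptor was not detected. Vegfa had 32.5, 27.4 and 28.8 FPKM, while Kdr had 0 counts (up to 0.00598) and Flt1 was at 4.64 ± 0.321. Ccl2 and Ccl5 (41.4 ± 4.30) stood beside Ccr2 at 0.00337 FPKM. Cxcl12 stood beside Cxcr4 at 0.106 ± 0.0189, with its other receptor Ackr3 at 18.9 ± 0.350. Kitl, Gdnf and Nrg1 were at 9.50, 5.95 and 8.30 FPKM, and their receptors Kit, Ret and Erbb3 were below 0.03.

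Few transcription factors reached 100 FPKM, 5 of 1427, beside 26 of 263 genes annotated with collagen-containing extracellular matrix. The medians of the 2 sets were alike, at 1.59 and 1.56 FPKM. Of the 1427 genes that the table assigns to a factor family 829 (58.1%) were detected, near the 58.8% of all protein-coding genes. Together the 1427 genes held 2.90% ± 0.0852 of summed FPKM. On the list of lineage factors 24 of 30 were detected. The paired-type homeobox genes Prrx1 and Prrx2, of limb and craniofacial mesenchyme, had 90.9, 79.6 and 82.1 and 59.2, 75.1 and 71.1 FPKM. Atf4 and the homeobox gene Six2 (38.0 ± 4.38) followed. Cbfb, the partner of RUNX proteins, was at 24.1 ± 0.317, and Runx3 and Runx1 were at 7.31 ± 0.380 and 4.69 ± 0.312, so that the ranges of Runx2 and its relatives can be set in order with Runx2 highest. Twist1, which restrains RUNX2, was at 18.6 ± 1.18. Sox9, the cartilage factor, was at 16.7, 19.4 and 16.2 FPKM, and Sox9 and Sox4 (11.3 ± 1.25) were the detected members of 16 Sox genes.

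Hox genes, which set position along the trunk and limbs and are silent in much of the mouse skull, were nearly silent here, with 3 of 32 detected. The highest were Hoxa5 (1.54, 1.86 and 1.32), Hoxa10 (1.16, 1.28 and 1.43), Hoxa6 (0.939, 1.21 and 1.17) and, under the threshold, Hoxa3 (0.411, 0.552 and 0.583). Other homeobox factors were higher: Alx4 and Alx1, of skull and face, were at 9.08 ± 1.04 and 6.88 ± 0.226, and Dlx5 and Msx2 as given for bone. In the family that the table calls homeobox 42 of 152 genes (27.6%) were detected.

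**Figure D5:**
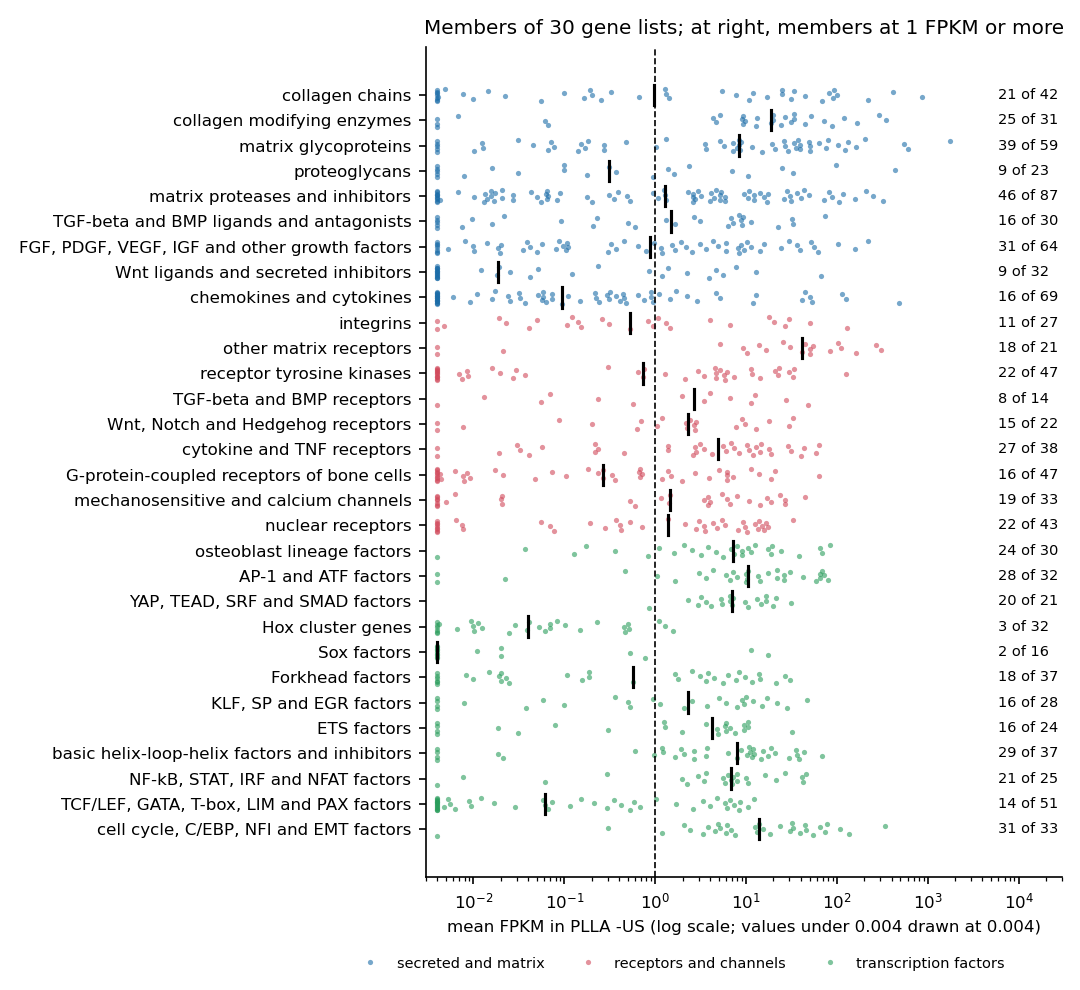
Mean FPKM in PLLA -US (x axis, log scale) of the members of the secreted and matrix lists (blue), receptor and channel lists (red) and transcription factor lists (green); each point is a gene, black bars are list medians, the dashed line marks 1 FPKM and the numbers at right count members at or above it. Matrix glycoproteins show 39 of 59 and Hox genes 3 of 32.

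Among the AP-1 and ATF factors 28 of 32 were detected, led by Nfe2l2 (79.9 ± 7.74), which drives antioxidant genes, Atf5 (71.8 ± 7.46), Nfe2l1 (68.4 ± 4.50) and Atf4. The AP-1 members Junb (65.3 ± 11.2) and Fosl1 (58.2 ± 8.80) exceeded Fos (7.91 ± 4.97). Factors that answer tension and TGF-beta were detected in 20 of 21 cases, with Srf at 31.3 ± 3.37, the YAP relative Wwtr1 (TAZ) at 21.6 ± 0.352, Smad3 at 19.6 ± 1.09 and Mrtfa, the actin-sensing partner of SRF, at 16.6 ± 1.36. Yap1 was at 10.5 ± 0.902. The list of cell cycle, C/EBP, NFI and EMT factors had the highest sum of the factor lists, 1228 ± 6.47 FPKM, and 31 of 33 were detected. Ybx1, which binds DNA and RNA, had 326, 335 and 345 FPKM. It was followed by the chromatin protein Hmga1 (135 ± 2.92), by Ybx3 (108 ± 2.66) and by Nfic (78.3 ± 5.14). Hmga2, of embryonic and transformed cells, was at 74.5 ± 9.24 and Trp53 at 46.0 ± 3.41.

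The remaining families had their highest members at 10 FPKM or more. Id4 (68.5 ± 3.70) and Id3 (38.2 ± 6.47), which block helix-loop-helix factors, led that family with Hif1a (43.0 ± 8.87) and Myc (36.2 ± 3.83), and 29 of 37 were detected. Egr1, an immediate early factor, had 54.3, 59.6 and 25.2 FPKM, with replicate 3 the lowest, and Klf4 (28.0 ± 1.55), Klf6 (21.8 ± 2.09) and Sp3 (17.03 ± 5.67) came after it, in a class with 16 of 28 detected. Rela (45.8 ± 0.863), Stat6 (42.1 ± 2.51), Nfkb2 (40.9 ± 4.92) and Irf1 (26.7 ± 2.22) led the factors of immune signalling (21 of 25). Forkhead factors (18 of 37) were led by the mitotic factor Foxm1 (30.2 ± 0.422), Foxo3 (27.0 ± 3.14), Foxk2 (21.4 ± 0.431) and Foxf1 (14.3 ± 0.118), and ETS factors (16 of 24) by Elk3 (31.9 ± 1.92), Elf4 (10.6 ± 0.819), Ets2 (10.5 ± 1.26) and Gabpa (9.55 ± 1.77). Among TCF/LEF, GATA, T-box, LIM and PAX factors 14 of 51 were detected, with Tbx15 (12.3 ± 1.54), Tcf7l1 (10.6 ± 1.03) and Pbx2 (8.38 ± 0.979) among the highest.

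Markers of other cell types were mostly near 0, except for the mesenchymal lists and part of the macrophage and osteoclast list. Fibroblast markers were detected in 7 of 10 cases (summed FPKM 1627 to 1952 over the 3 libraries), with S100a4 and Fn1 the highest. Of the defining pair Pdgfra was at 11.7 ± 0.995 and Dcn at 7.02 ± 0.493, while Fap and Dpt had 0 counts. Smooth muscle and pericyte markers were detected in 7 of 12 (summed FPKM 642 to 795), nearly all of it from Acta2. Tagln, a partner of ACTA2 in smooth muscle, had 1.69, 1.80 and 2.22 FPKM, so that Acta2 exceeded it 341 ± 50.9 times, and over the other 15 libraries 125 to 421 times. Pdgfrb was at 29.4 ± 3.60, Cnn1 at 0.0613 ± 0.0386 and Myh11, the smooth muscle myosin, at 0.0329 ± 0.00700, and Myocd had 0 counts.

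Macrophage and osteoclast markers were detected in 6 of 12 (summed FPKM 34.5 to 36.8), by Lyz2 (20.5 ± 0.720), Ctsk (5.90 ± 0.0416), Cd68 (5.11 ± 0.567), Itgam (1.45 ± 0.0648), Csf1r and Tyrobp (1.06 ± 0.327). The defining Ptprc and Adgre1 were at 0.0649 ± 0.0160 and 0.00665, and Acp5 had 0 counts (up to 0.0241). Chondrocyte markers were detected in 1 of 9, Sox9, with Acan at 0 counts and Col2a1 at 0.330 (summed FPKM 16.9 to 20.2). No adipocyte gene of 5 was detected (summed FPKM 0.892 to 1.26), with Fabp4 the highest at 0.578 and Cebpa next at 0.3004. The same held for 7 skeletal muscle genes (1.16 to 1.87), led by Des at 0.987 and Acta1 at 0.459. None of 9 endothelial genes reached the threshold (0.0697 to 0.124), with Pecam1 at 0.0573 and Cdh5 at 0.0175, nor did any of 8 kidney tubule genes (0.269 to 0.357), with Cubn at 0.197 and Lrp2 at 0.0448. Myod1, Myog, Kdr, Kap, Umod and Slc34a1 had 0 counts. Adipoq, Plin1, Matn1, Myf5 and Pax7 were not analysed here. Of the epithelial, neural and erythroid lists 1 gene each passed the threshold: Krt14 (0.818, 1.53 and 0.840), S100b (1.33, 3.24 and 2.38) and Epor (0.987, 1.47 and 0.792), while Epcam, Krt5, Sox10 and Hbb-bs had 0 counts. The next highest were Cdh1 at 0.0243 on the epithelial and Hba-a1 at 0.0397 FPKM on the erythroid list. The summed levels were 0.840 to 1.60 for the epithelial, 1.93 to 3.98 for the neural and 0.792 to 1.61 for the erythroid list.

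The spread between libraries fell on particular genes. Over 3941 protein-coding genes at 10 FPKM or more the median CV was 7.81%, with a 90th percentile of 14.8%. The steadiest were Cdc123, a factor for assembling translation initiation complexes, at 17.5, 17.6 and 17.6 FPKM, Slc7a6 (10.1, 10.1 and 10.1), an amino acid transporter, Wbp11 (25.04 ± 0.0793), of splicing, and the reticulon Rtn4 (56.6, 56.3 and 56.2). The most variable were Tomm6, of the mitochondrial import pore, at 19.2, 62.7 and 21.7, Gapdh, Ptgs2, the inducible cyclooxygenase, at 39.3, 18.2 and 15.1, Rpl17 at 71.8, 90.7 and 189.5, Samd9l, an interferon-inducible gene, at 21.1, 5.85 and 17.9, Smc4, a condensin subunit, at 40.5, 11.2 and 33.9, Rps27rt at 48.4, 52.4 and 118 and Raver1 at 11.3, 38.2 and 33.3. Some of these are members of gene families with many copies, and their values depend on how shared reads were counted.

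A CV of 30% or more was found for 58 of the 3941 genes, and in 43 of them replicate 2 lay farthest from the others and below them. They included Mki67, the proliferation marker, with 65.5, 22.2 and 54.1 FPKM, the condensin gene Smc2 with 27.8, 10.8 and 23.7, and Hsp90aa1, the inducible HSP90, with 167, 77.3 and 144, all named after their values were seen. Over all 3941 genes replicate 2 was farthest and lower in 484 and farthest and higher in 1458. Counts per FPKM, which rise with transcript length, had a median over the 43 genes of 1.44 times that of all 3941. It was 1.12 times for the 484 genes and 1.06 times for the 1458. The share of mitochondrial counts and the Y-linked sum were low in replicate 2. The part of transcript length, mitochondrial counts or Y-linked genes in these values was not tested. In 5 of the 58 genes replicate 3 lay farthest and below the others: the immediate early genes Egr1, Ier2 (22.8, 30.1 and 13.2) and Ccn1, and Sumo2 (70.3, 73.7 and 34.5), a protein modifier, and Rnasek (11.6 ± 4.04).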

How the data were processed

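Illumina libraries were made from polyadenylated RNA of MC3T3-E1 cells, per the labels. The submitters' processing notes name cutadapt 1.9, FastQC and the build GRCm38. Aligner, counter, strand setting and treatment of shared reads: not given in the sources used here. Per the file headers, the deposited table holds raw counts per gene and the authors' FPKM values. The ratio of count to FPKM and total had a median CV of 1.64% over the 3 libraries, so counts and FPKM differ mainly by a factor fixed per gene and by library size. Libraries were placed by their titles. Each sum, mean, SD and CV was computed from deposited FPKM (Python 3.11.15, pandas 2.3.3); levels were not tested. A count of 0 was given the limit of 3 counts. Pairs of libraries differed beyond sampling noise (chi-square per degree of freedom 22.3 to 71.7). The summaries were tested on simulated data. Genes named were the 20 highest, the 4 highest of each list, bone genes whatever their level, the 2 highest and 2 defining markers of other cell types, the genes next to the threshold and the 8 most and 4 least variable; further genes were picked once their values were known. The members and lists were chosen with earlier results of these data known, and 48 lists were used; some of their genes count in the totals but are not reported here. Alternatives were thresholds of 0.5 and 2, TPM, CPM, TMM (edgeR 4.0.16) and DESeq2 1.42.0 size factors, other pseudocounts and each library left out. Promoters are from RefSeq (GRCm38.p6); 13225 genes had one, of which 11077 matched.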

Additional observations from a re-analysis of the deposited data

How the results depend on the processing

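No paired analysis was possible because the results are levels within 1 group and come from no test. The number of detected genes was 11428, and between 9905 (threshold of 2 FPKM) and 13914 (TPM) under the alternatives; leaving out each library gave 11412 to 11450. Counts of detected members of the secreted, receptor, transcription factor and abundant gene lists stayed within 1.5 times at thresholds of 0.5 and 2 and without each library, as did the 16 osteoblast genes (16 to 23; TPM was added after seeing the data). The share of the 20 highest genes was 17.9% of summed FPKM, 10.4% of counts and 14.4% without mitochondrial and ribosomal protein genes, and 17.1% to 19.4% with each library left out. The 14.4% still holds the nuclear copies of mitochondrial sequence, such as Gm10925 (3004 FPKM) and Gm28661 (2720 FPKM), which were not removed. The median CV of 9.34% was 8.42% with TMM, 8.51% with DESeq2 size factors and 9.33% without mitochondrial and ribosomal protein genes (added after seeing the data); leaving out each library gave 6.22% to 10.2%, the lowest without PLLA -US replicate 2. The lowest correlation between libraries was 0.980, and 0.972 and 0.968 with pseudocounts of 0.1 and 0.01. With 3 libraries the SD is itself imprecise. The counts behind a low level depend on transcript length.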

Other observations

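Several genes outside the bone and matrix lists were abundant, and all are named after their values were seen. Complement C3, the central protein of complement, had 266, 303 and 239 FPKM, and Aebp1, a collagen-binding carboxypeptidase-like protein, had 281, 323 and 292. Ppbp, a chemokine known from platelets, was at 66.9 ± 13.2. The surface genes Ly6a (Sca-1), a stem cell marker, Cd34, and the interleukin-33 receptor Il1rl1 were at 75.8 ± 8.99, 56.9 ± 1.55 and 37.3 ± 4.58. Tnfrsf9, a TNF receptor known from activated T cells, was at 49.9 ± 4.13.

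Long non-coding RNAs were uneven. Malat1, a nuclear RNA abundant in most cells, had 26.9, 27.5 and 28.6 FPKM and Neat1, the scaffold of paraspeckles, 7.61, 8.87 and 10.4. The imprinted RNAs H19 and Meg3, which many embryonic and mesenchymal cells express, were at 0.0242, 0.0248 and 0.0741 FPKM and at 0 counts. Igf2, the imprinted neighbour of H19, was at 4.37 ± 0.607 FPKM.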
